A study of Homo sapiens with 2 samples.

Results

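Zinc finger genes of the ZNF series were examined among the transcripts tied to ALKBH5, an enzyme that takes the methyl mark of N6-methyladenosine off RNA, in HL-60 cells, an established human promyelocytic leukaemia line. A total of 196 ZNF genes were named in the deposited tables, of 5851 gene symbols in all (3.35%, 95% interval 2.90 to 3.84%). Membership was chosen from the deposited lists themselves: any symbol made of ZNF and a number, with no hyphen, that stood as an entry of a Gene Ontology (GO) term, of a KEGG pathway, or in the table of RNA-binding protein families. The antisense RNA ZNF337-AS1 and the helicase gene ZNFX1 also began with these letters and fell outside that rule. Each interval is an exact Clopper-Pearson one and covers counting error only.

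The study held 2 libraries of HL-60 cells, with no treatment or time given. They were 1 of RNA pulled down with an anti-ALKBH5 antibody from 80% of the lysate (IP) and 1 of input RNA from 10% of it. The rabbit IgG control has no library among these 2, so the pull-down could not be set against it. The labels give both libraries the genotype ALKBH5 and library names that begin with Ctrl, without explaining either, and the title of each library names the opposite group to its library name; groups were taken from the library names. The tables give no level, peak height or read count per gene and library, so the depth behind an entry is unknown, no IP to input difference could be computed, and there was no replicate check. A gene is therefore described as listed or not listed. Being unlisted does not mean lacking a peak, since the GO and KEGG tables hold entries only of terms with a deposited p-value under 0.05.

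Most ZNF proteins carry arrays of C2H2 zinc fingers, small folds held together by a zinc ion, each of which contacts a few bases of DNA. A large share also carry a KRAB domain, which recruits the scaffold protein TRIM28 and, through it, the histone methyltransferase SETDB1 to silence retrotransposons and other targets. Many of these genes arose by tandem duplication and lie side by side, above all on chromosome 19. Other ZNF proteins use their fingers to bind RNA or other proteins.

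Of the 196 ZNF genes, 195 were entries of GO terms and 0 were entries of the 38 KEGG pathways. The share of other symbols that were KEGG entries was not counted, so the 0 has no background beside it. The family table held 43, of which 42 were also GO entries; ZNF385C was the 1 gene named by the family table alone. All 196 matched a protein-coding gene of RefSeq (GRCh38.p14). RefSeq holds 510 protein-coding ZNF genes, so 38.4% of them were listed (95% interval 34.2 to 42.8%), against 26.9% of all 20056 protein-coding genes. Much of that gap rested on 1 broad GO term. Without the term nucleus, 151 ZNF genes were still listed (29.6%, 95% interval 25.7 to 33.8%), and so were 26.5% of all protein-coding genes (95% interval 25.8 to 27.1%). The listing chose the members, so these shares are descriptions without a test.

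As a check of the cell type, 6 of 11 myeloid marker genes were listed, namely MPO, PRTN3, LYZ, CD33, CEBPA and GFI1. ELANE, AZU1, CTSG, SPI1 and MYB were not. None of the 3 T cell, 3 B cell, 3 erythroid and 3 fibroblast markers was listed, whereas 3 of 3 epithelial markers (EPCAM, KRT8 and KRT18) and 1 of 3 endothelial markers (PECAM1) were. The interval reached 70.8% for each set with none listed and ran from 29.2 to 100% for the epithelial set. These few markers therefore do not settle the cell type. A listed marker gives no expression level, and the part of other cell types in the lists was not tested.

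Most ZNF genes were named by few terms: 166 of the 195 in GO (85.1%, 95% interval 79.3 to 89.8%) had at most 2, against 26.6% of the 5419 other symbols of the GO or KEGG tables. The term nucleus named 174 of the 195 in GO (89.2%, 95% interval 84.0 to 93.2%), against 39.6% of the other symbols and 41.3% of all symbols in the GO or KEGG tables. DNA binding named 114 (58.5%, 95% interval 51.2 to 65.5%), against 8.34% of the other symbols and 10.1% of all. ZNF genes thus made up 20.1% of the 566 entries of DNA binding and 7.50% of the 2319 entries of nucleus. Most ZNF genes entered the lists through nucleus or DNA binding, so the shares above partly restate how members were chosen and were not tested. The authors' deposited table gives nucleus a rich factor of 1.34, which sets the share of a term's background genes that are entries against the overall share, and a p of 0.00503 after correction. For DNA binding the authors' deposited table has a rich factor of 1.40 with a corrected p of 0.182. The entries of nucleus stood on 2190 distinct gene identifiers and those of DNA binding on 533.

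For 146 ZNF genes (74.9% of the 195, 95% interval 68.2 to 80.8%) no term other than nucleus or DNA binding was present. That was so for 99 of the 5419 other symbols (1.83%) and for 4.36% of all. Of these, 93 had exactly both and 52 had nucleus alone. Those with nucleus alone include ZNF384, a gene fused to other genes in acute leukaemia, and, first in alphabetical order, ZNF100, ZNF101, ZNF114, ZNF133, ZNF14 and ZNF142. ZNF511 rested on DNA binding alone, ZNF497 and ZNF740 on nucleoplasm alone, and ZNF598 on RNA binding alone. No listed term had a name with the words zinc, metal ion or sequence-specific.

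**Figure D1:**
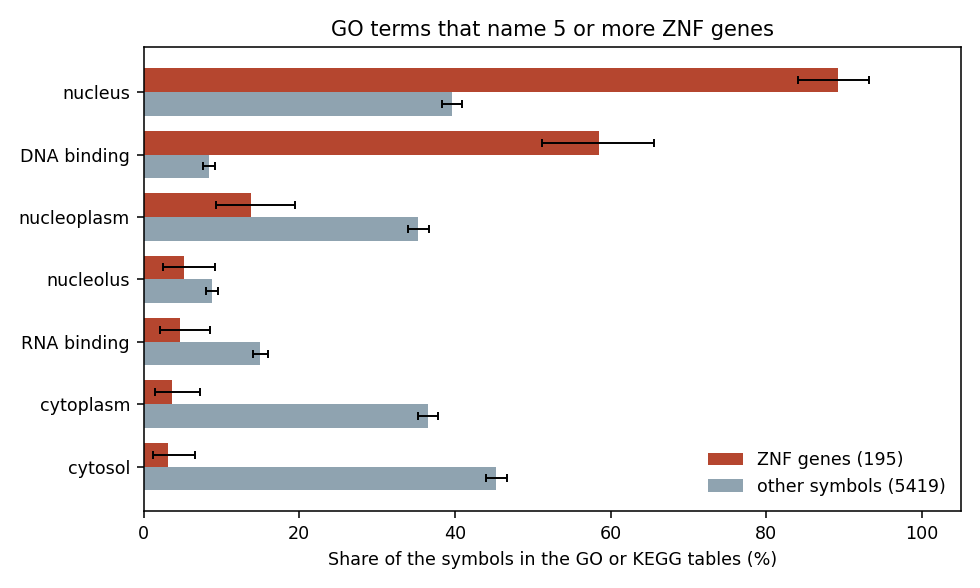
Share of symbols that are entries of each GO term naming 5 or more ZNF genes, for the 195 ZNF genes (upper bars) and the 5419 other symbols of the GO or KEGG tables (lower bars), in percent, with exact 95% intervals. ZNF genes stand above the other symbols in nucleus (89.2% against 39.6%) and DNA binding (58.5% against 8.34%) and below them in cytosol (3.08% against 45.3%). Most of the ZNF genes entered the lists through nucleus or DNA binding, and the contrasts were not tested.

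The remaining compartments held few ZNF genes. Nucleoplasm named 27 of the 195 (13.8%, 95% interval 9.33 to 19.5%), against 35.3% of the other symbols and 34.5% of all; 14 of these 27 were not entries of nucleus. It has the smallest corrected p of the GO terms, 3.05e-20 in the authors' deposited table. Its first ZNF entries in alphabetical order were ZNF143, ZNF175, ZNF207, ZNF212, ZNF217 and ZNF219. Nucleolus named 10 ZNF genes (5.13% of the 195, 95% interval 2.49 to 9.23%), against 8.80% of the other symbols. They include ZNF274, a KRAB zinc finger protein that binds the ends of other ZNF genes and brings SETDB1 there. Cytoplasm named 7 (3.59%), against 36.5% of the other symbols, and cytosol 6 (3.08%, 95% interval 1.14 to 6.58%), against 45.3%.

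Of the listed ZNF genes 9 were entries of RNA binding (4.62%, 95% interval 2.13 to 8.58%), against 15.0% of the other symbols and 14.6% of all. After correction the p of this term was 5.33e-16 in the authors' deposited table. Its ZNF entries were ZNF106, ZNF207, ZNF346, ZNF385A, ZNF598, ZNF622, ZNF638, ZNF74 and ZNF768. ZNF346 binds double-stranded RNA and was also an entry of double-stranded RNA binding and miRNA binding. ZNF598 is the ubiquitin ligase that marks stalled, collided ribosomes. ZNF622 acts in the maturation of the large ribosomal subunit and was the only ZNF entry of ribosomal large subunit biogenesis and of its precursor particle. In the authors' deposited table that precursor term had 23 entries, on 21 identifiers, and 23 background genes.

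Some ZNF genes were named across many processes. ZNF207, a microtubule and kinetochore protein that binds the checkpoint protein BUB3, was an entry of 16 terms, the highest number of any ZNF gene. They included kinetochore, spindle, microtubule binding and mitotic spindle assembly checkpoint. ZNF207 spans 32350157 to 32381885 of chromosome 17 (GRCh38.p14). ZNF830, a spliceosome-associated protein, followed with 10 terms, among them RNA splicing, spliceosomal complex and chromosome. ZNF346, ZNF385A (a cofactor of p53) and ZNF638 (a nuclear protein with a role in splicing) had 7 each, and ZNF622 had 6. ZNF106, the oncogene ZNF217 and the breast cancer gene ZNF703 had 5, and ZNF143, ZNF224 and ZNF281 were among those with 4. ZNF143 activates small nuclear RNA genes and was the ZNF entry of positive regulation of transcription by RNA polymerase III. At the other end 56 ZNF genes had 1 term, 110 had 2 and 14 had 3.

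In all 58 GO terms named a ZNF gene, 26 of them compartments, 22 processes and 10 molecular functions, and 42 of the 58 named just 1. A listed process named 17 of the 195 ZNF genes (8.72%, 95% interval 5.16 to 13.6%), against 57.8% of the other symbols and 56.1% of all. A compartment named 192 (98.5%), against 93.6% of the other symbols, and a molecular function 124 (63.6%, 95% interval 56.4 to 70.3%), against 59.0%. Nuclear speck named ZNF106, ZNF217, ZNF638 and ZNF830, and transcription corepressor activity named ZNF281, ZNF451 and ZNF653. Cell division named ZNF207 and ZNF830. Cytosol, membrane and ubiquitin protein ligase binding, with corrected p-values of 5.9e-11, 6.31e-10 and 4.93e-06 in the authors' deposited table, named 6, 1 (ZNF106) and 1 (ZNF746, a substrate of the ubiquitin ligase parkin). Of the terms with a ZNF gene the one nearest the listing limit was chromatin organization, with an uncorrected p of 0.0488 in the authors' deposited table. Its entries ZNF304 and ZNF462 were also named by nucleus, so neither was listed through it alone. Terms past that limit are not in the tables used here.

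A list of 53 ZNF genes with known single-gene roles was written by function. Of these 32 were listed (60.4%, 95% interval 46.0 to 73.5%), beside 38.4% of all protein-coding ZNF genes. They include ZNF335, a subunit of a histone methyltransferase complex, the SUMO ligase ZNF451, and ZNF445, which keeps imprinted genes silenced. ZNF10, the source of the KRAB domain widely used as a repressor tag, was not listed. Neither were ZNF91 and ZNF93, which repress retrotransposons. The list was written with earlier results of these tables known and well-studied genes carry more annotations, so this share supports nothing on its own. The partners of KRAB proteins were listed in 15 of 20 cases (75.0%, 95% interval 50.9 to 91.3%), again beside 26.9% of all protein-coding genes. Among them were TRIM28, SETDB1, its cofactor ATF7IP, the heterochromatin protein CBX5, the chromatin remodeller ATRX and the DNA methyltransferase DNMT1. CBX1, CBX3, DAXX, SUMO2 and TASOR were not. This list was also written with earlier results of these tables known, and it too holds well-studied genes. Its share supports nothing on its own either.

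Chromosome 19 carried 94 of the 196 listed ZNF genes (48.0%, 95% interval 40.8 to 55.2%). It also carries 246 of the 510 ZNF genes in RefSeq (48.2%). The listed share was accordingly 38.2% on chromosome 19 (95% interval 32.1 to 44.6%) and 38.6% on all other chromosomes (102 of 264, 95% interval 32.7 to 44.8%), so the difference was well inside the counting error. Of the protein-coding genes other than ZNF genes, 30.0% were listed on chromosome 19 (362 of 1205) and 26.3% elsewhere. Chromosome 7 followed with 14 of 35 ZNF genes and chromosome 16 with 13 of 30. The highest shares on chromosomes with at least 9 ZNF genes were on chromosome 20 (7 of 9) and chromosome 6 (5 of 9), and the lowest on chromosome 5 (2 of 13) and chromosome 10 (3 of 16). All 21 chromosomes with a RefSeq ZNF gene had at least 1 listed.

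**Figure D2:**
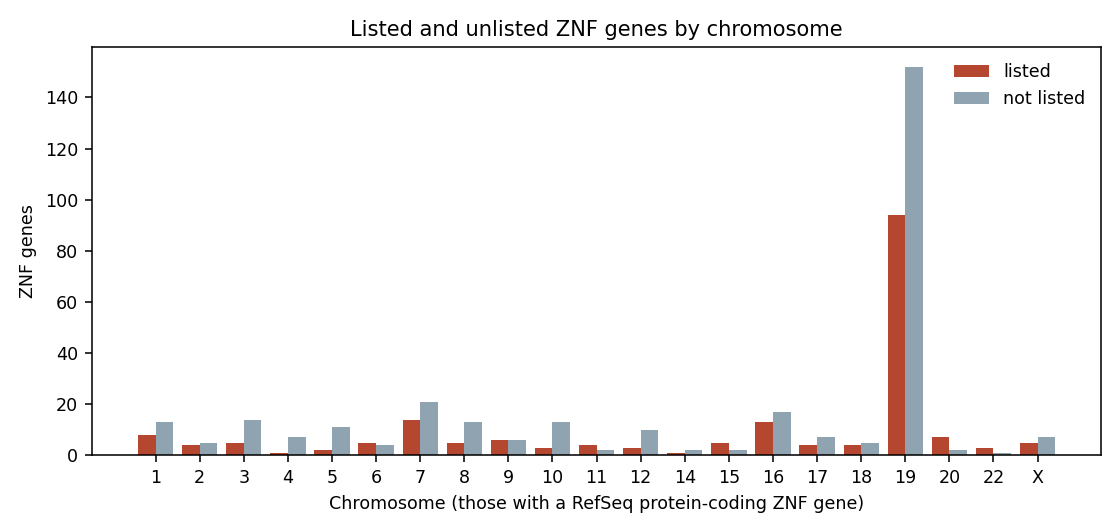
Number of protein-coding ZNF genes that are listed (left bars) and not listed (right bars) on each chromosome. Chromosome 19 holds 94 listed genes beside 152 unlisted ones, a listed share of 38.2% against 38.6% on the other chromosomes together.

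Runs of 3 or more ZNF genes whose neighbouring starts lay within 500 kb formed 33 clusters, 11 of them on chromosome 19, with 351 genes in all. Within clusters 119 genes were listed (33.9%, 95% interval 29.0 to 39.1%). Outside clusters 77 of 159 were (48.4%, 95% interval 40.4 to 56.5%). The same order held on chromosome 19 (36.6% of 235 within, 8 of 11 outside, with overlapping intervals of 30.4 to 43.1% and 39.0 to 94.0%) and on the other chromosomes (28.4% of 116 within, 46.6% of 148 outside). It also held without the term nucleus (25.9% within and 37.7% outside), where the intervals overlapped (21.4 to 30.8% and 30.2 to 45.8%). How many unlisted ZNF genes the background of each term holds is not given in the tables, so unequal annotation within and outside clusters was not tested. Listing here is by symbol. ZNF155, ZNF417, ZNF570 and ZNF875, in clusters on chromosome 19, counted as unlisted though their identifiers were among the GO entries. ZNF747, ZNF75A and ZNF773 counted as listed in clusters though entered with an identifier not their own. Cluster counts by identifier were not made.

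The listed share varied among clusters, but no test compared them, and the exact intervals of the 11 clusters with 10 or more genes overlapped one another. The one with most listed genes lies near the end of chromosome 19 (57191500 to 58489533, GRCh38.p14), where 24 of 43 were listed (55.8%, 95% interval 39.9 to 70.9%). In order of position they begin with ZNF264, ZNF805, ZNF460, ZNF543, ZNF304, ZNF548, ZNF17 and ZNF772, and they hold ZNF274. Another cluster on chromosome 19 (51571283 to 53580269) had 15 of 39 listed, from ZNF175, ZNF649 and ZNF841 to ZNF331. The cluster from 19668153 to 24129968, also on chromosome 19, had 11 of 37 listed, starting with ZNF101, ZNF14 and ZNF506. The one from 36182060 to 37779586 had 10 of 26, among them ZNF529, ZNF850 and ZNF790. None of its genes was in the family table, which named 21.9% of all listed ZNF genes. Smaller clusters also had none there, and this was not tested. The one from 8509678 to 9786160 had 8 of 13, including ZNF558, ZNF317, ZNF699 and ZNF121.

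On chromosome 7 the cluster from ZNF786 to ZNF862 (149069641 to 149867479) had 8 of 10 listed (80.0%, 95% interval 44.4 to 97.5%). It also held the longest unbroken run of listed neighbours, which were ZNF398, ZNF282, ZNF212, ZNF783, ZNF777 and ZNF746. The longest run of unlisted neighbours had 16 genes and lay on chromosome 19 (21804946 to 23944714), between ZNF100 and ZNF254. That run holds ZNF43, ZNF208 and ZNF91. The other clusters with 10 or more genes had listed shares of 18.2 to 46.2%. A set of 9 small clusters had none, the largest of them with 7 genes on chromosome 12. One of the 9, on chromosome 1, has 3 genes only with ZNF593OS, an opposite-strand gene beside ZNF593 that meets the symbol rule and is counted in the 510. Without it there were 32 clusters, and listing was 34.2% of 348 within them and 47.8% of 161 outside.

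**Figure D3:**
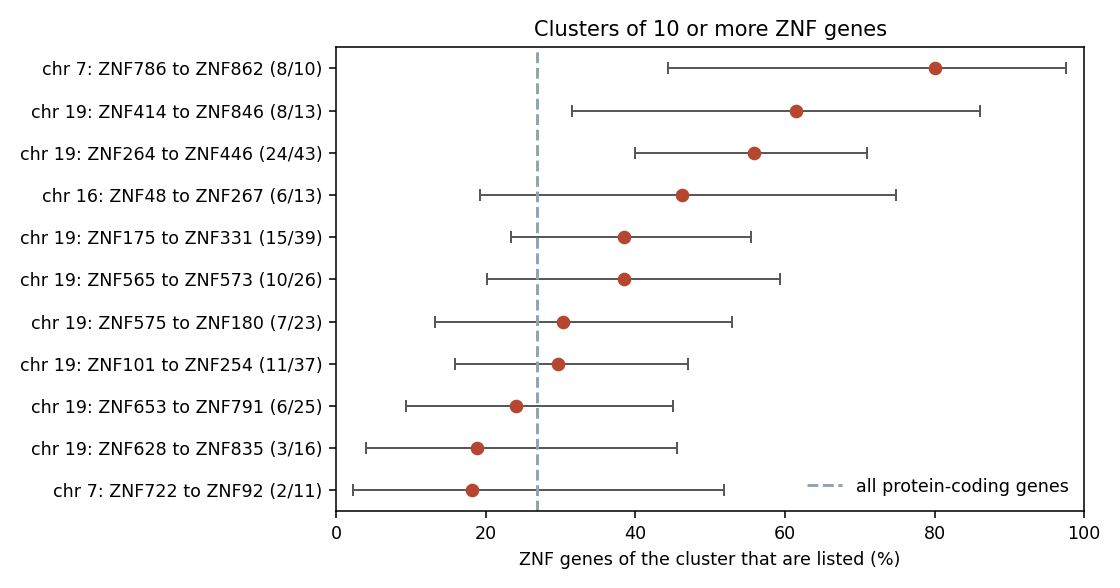
Share of ZNF genes listed in each cluster of 10 or more, in percent with exact 95% intervals; labels give the chromosome, the first and last gene and the listed genes out of all. Shares run from 18.2% (chromosome 7, ZNF722 to ZNF92) to 80.0% (chromosome 7, ZNF786 to ZNF862), and the dashed line marks the 26.9% of all protein-coding genes.

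The family table pairs symbols with 4 groups of RNA-binding proteins: RRM (the RNA recognition motif), CSD (the cold shock domain), PUF (the Pumilio family) and a combined group of CCHC zinc finger and RRM proteins. How a pair was made is not given in the sources used here. It named 43 of the 196 ZNF genes (21.9%, 95% interval 16.4 to 28.4%), close to the 23.0% of all listed symbols. On chromosome 19 it named 22 of 94 and elsewhere 21 of 102. All 43 were paired with RRM and CSD, as were 100% and 99.5% of the 1305 other symbols in the table. PUF was paired with 37 of the 43 (86.0%, 95% interval 72.1 to 94.7%), against 87.8% of the other symbols and 87.8% of all.

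Among the 4 groups the widest gap between ZNF genes and the rest of the table was in the CCHC and RRM group. It was paired with 20 of the 43 (46.5%, 95% interval 31.2 to 62.3%), against 873 of the 1305 other symbols (66.9%, 95% interval 64.3 to 69.4%) and 66.2% of all. A gap of similar size was seen on chromosome 19, where 10 of 22 ZNF genes (45.5%) and 51 of 73 other protein-coding symbols (69.9%) had the pairing, and 10 of the 21 ZNF genes elsewhere (47.6%) had it. The intervals within chromosome 19 overlapped (24.4 to 67.8% and 58.0 to 80.1%). These 22 genes are part of the 43, so the split, chosen after seeing the data, gives no separate support. Of the 43, 15 ZNF genes were paired with all 4 groups (34.9%, 95% interval 21.0 to 50.9%), against 63.1% of the other symbols and 62.2% of all. The most frequent class was RRM, CSD and PUF without the CCHC group, with 22 ZNF genes (51.2%), against 24.6% of the other symbols.

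Genes paired with all 4 groups were, first in alphabetical order, ZNF121, ZNF17, ZNF280C, ZNF316, ZNF335 and ZNF426. ZNF101, ZNF264, ZNF276, ZNF282, ZNF324 and ZNF385C led the class without the CCHC group. ZNF45, ZNF629, ZNF668, ZNF687 and ZNF775 had RRM, CSD and the CCHC group without PUF, and ZNF213 had RRM and CSD alone. Of the 9 ZNF entries of RNA binding, ZNF74 was the only one in the family table (11.1%, exact interval 0.281 to 48.2%). That interval includes the 21.9% of all listed ZNF genes that the family table named. Of the 9 ZNF genes with 5 or more terms, ZNF703 was the only one in the family table, which is again 1 of 9. Neither count therefore sets these genes apart from the other listed ZNF genes.

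**Figure D4:**
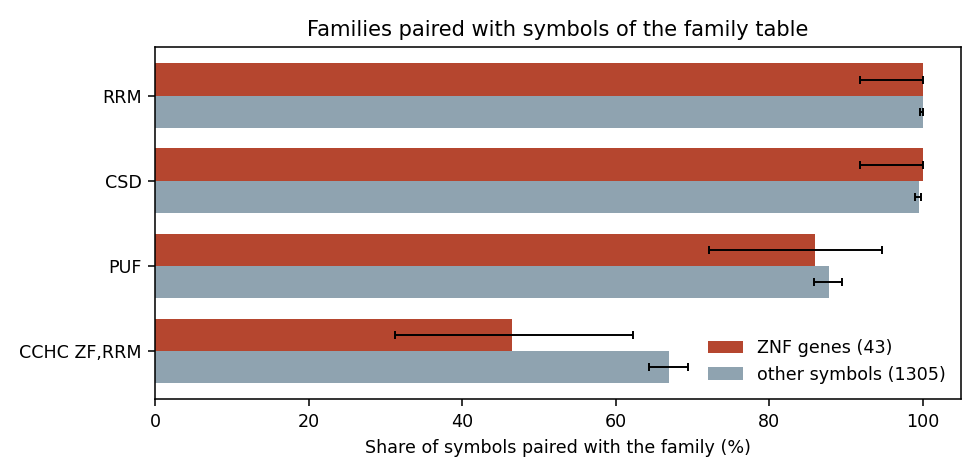
Share of symbols paired with each group of RNA-binding proteins, for the 43 ZNF genes (upper bars) and the 1305 other symbols (lower bars) of the family table, in percent with exact 95% intervals. The CCHC and RRM group is paired with 46.5% of the ZNF genes against 66.9% of the others, and PUF with 86.0% against 87.8%.

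Listed and unlisted ZNF genes had nearly the same median length. Over the whole gene, introns included, it was 23.1 kb for the listed ones (quartiles 13.7 and 37.0 kb), against 24.1 kb for the 314 unlisted ones (15.4 and 42.7 kb). Among other protein-coding genes the median was 36.4 kb when listed and 19.9 kb when not. The shortest listed ZNF genes were ZNF830 (2.24 kb), ZNF513 (3.50 kb) and ZNF703 (4.24 kb). ZNF407 (468 kb), ZNF704 (256 kb) and ZNF609 (226 kb) were the longest. For ZNF genes in the family table the median was 22.1 kb, against 23.2 kb for the other listed ZNF genes.

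**Figure D5:**
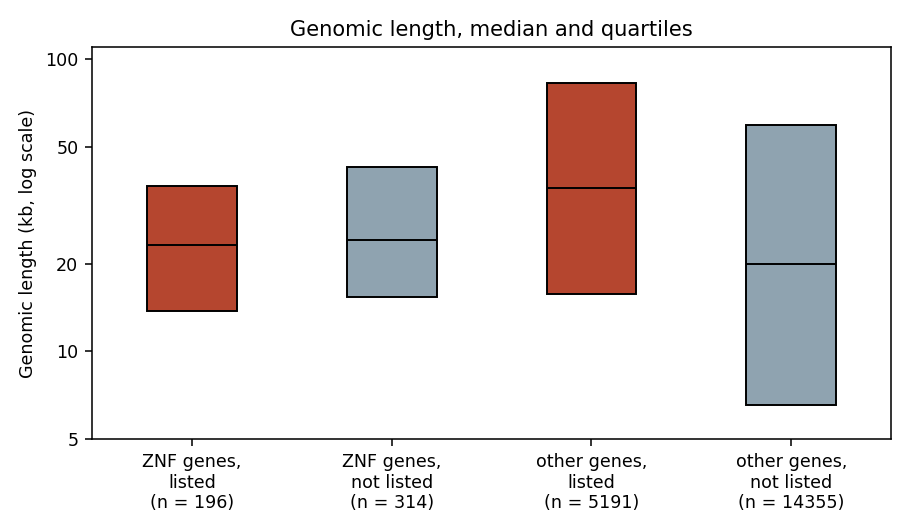
Genomic length in kb on a log scale; boxes span the quartiles and the line marks the median, with listed genes left of unlisted ones. The medians are 23.1 and 24.1 kb for ZNF genes and 36.4 and 19.9 kb for other protein-coding genes.

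Gene identifiers in the GO entries matched the symbol for all but 3 ZNF genes. ZNF747 was entered with the identifier of its neighbour ZNF764 on chromosome 16. The lowest coordinates of the pair lie 23397 bases apart. ZNF75A, also on chromosome 16, was entered with that of ZNF75D on chromosome X. ZNF773 shared an identifier with PPHLN1, a gene of the silencing complex that works with SETDB1. In all 12 ZNF genes shared an identifier with another symbol, mostly a clone name such as AC084219.4 beside ZNF224. The 195 symbols in GO thus stood on 193 identifiers, and a term entry of ZNF747, ZNF75A or ZNF773 cannot be read as an annotation of that gene itself. The 4 genes of these ZNF pairs are separate loci. The 100 bases before a start of each are printed below (RefSeq, GRCh38.p14, strand of the gene, CG steps in capitals). For ZNF75D the table has no window at the annotated gene start, so an inner start is shown.
ZNF747, chr16:30534859-30534958, minus strand: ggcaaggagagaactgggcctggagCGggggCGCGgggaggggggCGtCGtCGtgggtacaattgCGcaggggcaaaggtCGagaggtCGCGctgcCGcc
ZNF764, chr16:30558375-30558474, minus strand: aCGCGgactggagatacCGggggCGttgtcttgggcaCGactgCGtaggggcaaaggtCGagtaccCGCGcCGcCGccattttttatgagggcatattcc
ZNF75A, chr16:3305397-3305496, plus strand: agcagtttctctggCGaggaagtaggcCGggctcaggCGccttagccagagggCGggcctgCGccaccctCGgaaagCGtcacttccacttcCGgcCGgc
ZNF75D, chrX:135296040-135296139, minus strand: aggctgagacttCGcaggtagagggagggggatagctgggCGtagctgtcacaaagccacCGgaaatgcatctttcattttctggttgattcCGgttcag
ZNF747 and ZNF764 share an exact run of 16 bases here, aggggcaaaggtCGag, while the longest run common to ZNF75A and ZNF75D is 6 bases. The ZNF75D bases come from an inner start, so the run of 6 compares unlike positions. Run lengths between unrelated sequences were not computed.

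CG steps are frequent at the promoters of broadly used genes and sparse in most other DNA. Promoter windows were at hand for 15843 protein-coding genes, 13820 of them at the annotated gene start. The split of the other starts between listed and unlisted ZNF genes is not given here. Over windows of 250 bases before to 50 bases after the start, the median ratio of observed to expected CG steps was 0.800 in the 169 listed ZNF genes with a window (quartiles 0.677 and 0.912). It was 0.777 in 262 unlisted ZNF genes (0.592 and 0.907). A ratio of at least 0.6 was found in 85.2% of the listed ones (95% interval 78.9 to 90.2%) and in 74.4% of the unlisted ones (68.7 to 79.6%). Other protein-coding genes had such a ratio in 83.7% of listed and 58.0% of unlisted cases. A split of this ratio by chromosome was chosen after seeing the data and was not tested. On chromosome 19 the median ratio was 0.760 in listed and 0.777 in unlisted ZNF genes. The shares there were 81.0% of listed and 75.8% of unlisted genes, with overlapping intervals (70.9 to 88.7% and 67.5 to 82.8%). On the other chromosomes the median ratio was 0.852 in listed and 0.773 in unlisted ZNF genes, and the shares were 89.4% of listed genes (lower bound 80.8%) and 73.1% of unlisted genes (upper bound 80.5%). The listed ZNF genes at both ends of this ratio are shown by the 100 bases before their starts, with CG in capitals. ZNF219 had a ratio of 0.209 and 0 CG steps in the bases shown, and ZNF175 a ratio of 1.15 and 8 of them.
ZNF219, chr14:21104723-21104822, minus strand: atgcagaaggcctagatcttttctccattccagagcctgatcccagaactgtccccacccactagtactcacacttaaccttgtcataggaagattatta
ZNF175, chr19:51571183-51571282, plus strand: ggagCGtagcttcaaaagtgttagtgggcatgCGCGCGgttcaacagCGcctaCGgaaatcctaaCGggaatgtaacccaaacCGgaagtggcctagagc
These windows describe the genes; the tables hold no peak position, so no window is tied to a site of ALKBH5 binding.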

How the data were processed

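RNA of an anti-ALKBH5 pull-down and of input was sequenced in HL-60 cells, 1 library each, from stranded mRNA libraries per the labels' protocols. Per the submitters' processing notes hg38 was the build; aligner, peak caller and enrichment tool are not given in the sources used here. All values came from 3 tables of the whole series. Per the file headers, the GO and KEGG tables hold numbers of entries and of background genes, a rich factor (a ratio, or fold, made by the authors), the authors' p-values and corrected p-values, and the entries as an identifier and a symbol. The family table pairs symbols with families, with no number. The deposited number of entries equalled the entries in all 349 terms.

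Symbols were matched to RefSeq (GRCh38.p14) by current symbol, then by an older symbol held by 1 gene. Listed shares carry exact Clopper-Pearson 95% intervals (scipy 1.17.1, Python 3.11.15) and no test. Clusters are runs of at least 3 protein-coding ZNF genes with starts, taken as the lowest coordinate of each gene, within 500 kb. The procedures were tested on simulated data. Terms named are those with 5 or more members and the 10 of smallest p; genes named are the 12 in most terms, the first 6 by alphabet of a class, up to 8 by position in the 5 leading clusters, those sharing identifiers, the ends of length, and those with known roles. A few others were named after their values were seen. Members and lists were chosen with earlier results of these data known. Planned counts of zinc fingers and KRAB boxes and protein lengths were not made, since no protein sequence was used here. Alternatives are given in the closing section.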

Additional observations from a re-analysis of the deposited data

How the results depend on the processing

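The count of 196 ZNF genes became 43 in the family table alone and 0 in KEGG alone; GO alone (195), distinct identifiers (194) and RefSeq genes (196) changed it by less than 1.5 times. The 38.4% of RefSeq ZNF genes listed fell to 31.8% over genes of any biotype, to 8.43% in the family table alone and to 29.6% without the term nucleus. Fewer genes can be listed, or more are counted, under each of these by construction. Terms with a corrected p under 0.05 alone gave 37.8%, matching by identifier as well gave 39.6%, and leaving out ZNF593OS gave 38.5%. The share of ZNF genes whose only term is nucleus, 26.7%, became 79.8% when only terms with a corrected p under 0.05 counted (154 genes). Of the 102 genes this added, 93 had DNA binding as their one other term and 4 did not have it at all. The shares on chromosome 19, the counts in clusters joined at 250 or 1000 kb, the family table shares, and the medians of length and of the CG ratio stayed within the main intervals, quartiles or 1.5 times. Listing within and outside clusters was 33.7% and 47.0% at 250 kb, and 34.2% and 49.3% at 1000 kb. The alternatives by identifier and without ZNF593OS for listing, those of the CCHC pairing and the CG ratio, pairings on chromosome 19, and the limit on corrected p for single-term genes were chosen after seeing the data. Zinc finger counts, KRAB boxes and protein lengths were not run. No paired analysis was possible because the tables hold no value per library. With no read counts, depth limits every unlisted gene to an unknown degree.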

Other observations

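Listed shares were also counted for other zinc finger families. Genes for ZC3H proteins, whose CCCH fingers bind RNA, were listed in 11 of 18 cases (61.1%, 95% interval 35.7 to 82.7%), with ZC3H13, a subunit of the m6A methyltransferase complex, among them. ZBTB transcription factors were listed in 19 of 41 cases (46.3%, 30.7 to 62.6%), ZSCAN genes in 8 of 21 and ZKSCAN genes in 4 of 7. Genes whose symbol begins with ZFP were listed in 2 of 21 cases (9.52%, 1.17 to 30.4%), namely ZFP30 and ZFP92. The prefix also takes in the unlisted CCCH genes ZFP36, ZFP36L1 and ZFP36L2, so these 21 are not a single family. The KLF family had 5 of 18 listed, GLI and GLIS genes 1 of 7, and the lymphoid IKZF regulators 0 of 5 (up to 52.2%). All protein-coding genes were listed in 26.9% of cases, and the differences between these families were not tested.

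A further 6 ZNF genes had their RefSeq identifier among the GO entries under symbols outside the rule. ZNF875 appeared as HKR1, its older symbol. ZNF155, ZNF410, ZNF417, ZNF436 and ZNF570 appeared under clone names alone, for example RP11-452L6.5 for ZNF436, which was an entry of cytosol, nucleoplasm and nucleus.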
